A study of Mus musculus with 2 samples.

Results

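The genes described here are 40 genes of glycolysis, glycogen metabolism and high-energy phosphate handling, chosen by name from the 32285 features measured in each library. All 40 were present in both libraries. Single cells had been sorted from the plantaris muscle of Pax7rtTA; TRE-H2B-GFP mice aged 26 weeks, in which the Pax7 promoter drives the doxycycline-dependent activator and doxycycline switches on a green nuclear label in muscle stem cells (MuSCs). Every mouse had received doxycycline at 2.0 mg/ml in water with 2% sucrose for 2 weeks by the labels, so controls carry the transgenes and the drug as well. The plantaris was taken 5 days after surgery, either a sham operation or mechanical overload (MOV), in which synergist muscles are partly removed so that the plantaris bears more load. The libraries were made from 3′ ends with unique molecular identifiers (UMIs), 1 from sham and 1 from MOV muscle, and whether they pool animals is given differently in the labels and the methods.

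Glycolysis splits glucose into pyruvate, and lactate dehydrogenase, whose subunits are Ldha and Ldhb, converts pyruvate to lactate and back. Glycogen is the stored form of glucose, built by glycogenin (Gyg), glycogen synthase (Gys1) and the branching enzyme (Gbe1) and broken down by glycogen phosphorylase, which is Pygm in muscle and Pygl in liver. Creatine kinase (Ckm in muscle, Ckb in brain and many other cells, Ckmt2 in muscle mitochondria), adenylate kinase (Ak1) and AMP deaminase (Ampd1) keep ATP available during contraction. Several steps have a muscle isoenzyme beside a widely used one, such as Eno3 beside Eno1 (enolase), Pgam2 beside Pgam1 (phosphoglycerate mutase) and Pfkm beside Pfkp and Pfkl (phosphofructokinase). Fast muscle fibres with Myh4 myosin rely most on glycolysis, and fibres with Myh2 are the more oxidative of the fast types.

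The upstream DNA of 5 genes is shown because the results turn on them: both phosphoglycerate mutases, both cytosolic creatine kinases and Eno3, the muscle enolase. In MuSCs of MOV, Pgam1 and Ckb lead their pairs, and in fibres Pgam2 and Ckm do. In the largest MuSC group of sham, Ckm leads as in fibres. Each line is the 250 bases before the start site of the gene on its own strand, from RefSeq in build GRCm38.p6, and capitals mark the E-box letters CANNTG, which bHLH factors such as MyoD can bind. Pgam1 is read from chr19:41911621-41911870 (plus strand), Pgam2 from chr11:5803797-5804046 (minus), Eno3 from chr11:70656926-70657175 (plus), Ckb from chr12:111672339-111672588 (minus) and Ckm from chr7:19410844-19411093 (plus).
Pgam1: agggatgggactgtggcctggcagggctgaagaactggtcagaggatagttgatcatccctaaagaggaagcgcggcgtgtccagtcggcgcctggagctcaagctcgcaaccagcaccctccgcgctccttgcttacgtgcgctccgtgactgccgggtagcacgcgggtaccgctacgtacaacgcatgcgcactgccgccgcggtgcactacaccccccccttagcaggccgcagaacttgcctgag
Pgam2: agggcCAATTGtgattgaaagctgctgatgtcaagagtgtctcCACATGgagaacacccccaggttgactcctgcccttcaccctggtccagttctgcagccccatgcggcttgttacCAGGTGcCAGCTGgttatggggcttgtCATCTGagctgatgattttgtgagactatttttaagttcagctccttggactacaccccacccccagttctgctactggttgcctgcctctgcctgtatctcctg
Eno3: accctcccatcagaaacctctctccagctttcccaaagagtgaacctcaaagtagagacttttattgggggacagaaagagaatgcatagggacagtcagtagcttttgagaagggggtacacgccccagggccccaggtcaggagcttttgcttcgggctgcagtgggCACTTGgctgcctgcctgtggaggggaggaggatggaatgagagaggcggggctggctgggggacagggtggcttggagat
Ckb: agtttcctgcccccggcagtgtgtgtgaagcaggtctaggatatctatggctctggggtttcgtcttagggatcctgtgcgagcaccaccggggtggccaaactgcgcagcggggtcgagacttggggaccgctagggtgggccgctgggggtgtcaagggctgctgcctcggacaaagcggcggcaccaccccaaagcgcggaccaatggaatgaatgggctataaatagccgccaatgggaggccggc
Ckm: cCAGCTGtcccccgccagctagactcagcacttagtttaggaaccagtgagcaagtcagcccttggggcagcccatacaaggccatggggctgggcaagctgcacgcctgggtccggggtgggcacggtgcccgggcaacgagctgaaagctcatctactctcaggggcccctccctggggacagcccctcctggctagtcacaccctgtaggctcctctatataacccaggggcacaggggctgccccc
The letters CANNTG, which read alike on both strands, occurred 5 times in the Pgam2 stretch, 1 time each in those of Eno3 and Ckm, and 0 times in those of Pgam1 and Ckb. Over all 32851 RefSeq stretches of this length 66.2% held at least 1 match and 1.15% held 5 or more. The stretch of Ckb held 1 match to a MEF2-like motif (CTA and TAG with any 4 bases between), overlapping a TATAAA, while the other 4 stretches held 0; 3.20% of all stretches held the MEF2-like motif and 12.4% held TATAAA on either strand. These are matches of letters and were not tested as binding sites. Of the 40 genes, 37 had a stretch in the table, and Eno1 is not shown since it is listed with several start sites.

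Cells were grouped by the UMIs of marker genes, none of which is among the 40, after cells with a mitochondrial share of 10% or more had been left out. MuSCs were those with Pax7, Myf5 or Myod1, and within them quiescent-marker MuSCs had Chrdl2, Calcr, Spry1, Hey1 or Heyl, matrix MuSCs had Gpc3 or Islr, and cycling MuSCs had cell cycle genes. Myocytes had Myog, Mymk, Mymx, Myh3 or Myh8, called late where the 2 developmental myosins outweighed the other 3. Fibre droplets held adult fast myosin RNA (Myh1, Myh2 or Myh4), with the dominant myosin over 50% of the 3, and may be pieces of fibres rather than whole cells. Pdgfra cells, the fibroadipogenic cells of muscle, served as the non-myogenic group. Sham gave 54 quiescent-marker, 1 matrix and 11 cycling MuSCs, 1 myocyte, 424 fibre droplets and 18 Pdgfra cells, and MOV gave 310, 208, 694, 183, 23 and 265. The labels call the material muscle stem cells, and the methods name a sort for VCAM and against CD31, CD45 and SCA1, so the fibre droplets and the Pdgfra cells, at 1749 CPM of Ly6a (SCA1) in MOV, go against the stated gate. The names fit markers that were not used for grouping: Vcam1 was at 813 and 1064 CPM in quiescent-marker MuSCs of sham and MOV, Pvalb and Actn3 were at 6859.8 and 3472 CPM in Myh4-dominant droplets of sham, and Dcn and Col1a1 were at 3978 and 8263 CPM in MOV Pdgfra cells.

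The MOV library was deeper, with 88498487 UMIs in 3854 cells against 7302661 in 1100 for sham. The share of all UMIs taken by the 40 genes was 3.95% in sham and 0.684% in MOV. Both libraries contained 44 cell barcodes in common, where the shallower cell held a median of 2.11% of the UMIs of the deeper one. The shallower copies were left out (5 sham and 39 MOV), and 8 of the MOV copies had been Myh4-dominant droplets, which leaves 1 such droplet in MOV. A further 28 sham MuSCs had no group markers; 1 of them held 2358 of their 2408 Ckm UMIs, and the other 27 had Ckm at 139 CPM. MOV held 203 MuSCs without group markers. Those of both libraries enter the count of highest levels (for Slc16a1 in sham and Hk1 in MOV) and the values of Hk2 below, but no count of genes past 2-fold.

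Values are UMIs of a gene per 1000000 UMIs of a group (CPM), with 95% counting intervals in parentheses, and ratios are log2 ratios of CPM, with their interval after them. Each condition is 1 library, replicate error is therefore unknown, no test was run, and each interval covers counting error only. A gene is called higher or lower where its ratio reached 2-fold (1 on the log2 scale) with at least 20 UMIs over both groups, and the share of all genes called in that way is given beside each count. Because the method counts 1 tag per transcript, shares within an isoenzyme set compare molecules; splice forms such as the M1 and M2 forms of Pkm are not told apart. Gapdh, Aldoa, Pgam1, Pgk1, Tpi1, Eno1, Pkm and Ldha have many processed copies elsewhere in the genome, so reads may be split among them and their counts are less certain. In droplets, less RNA per cell and fewer transcribing cells cannot be told apart in a summed value.

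**Figure D1:**
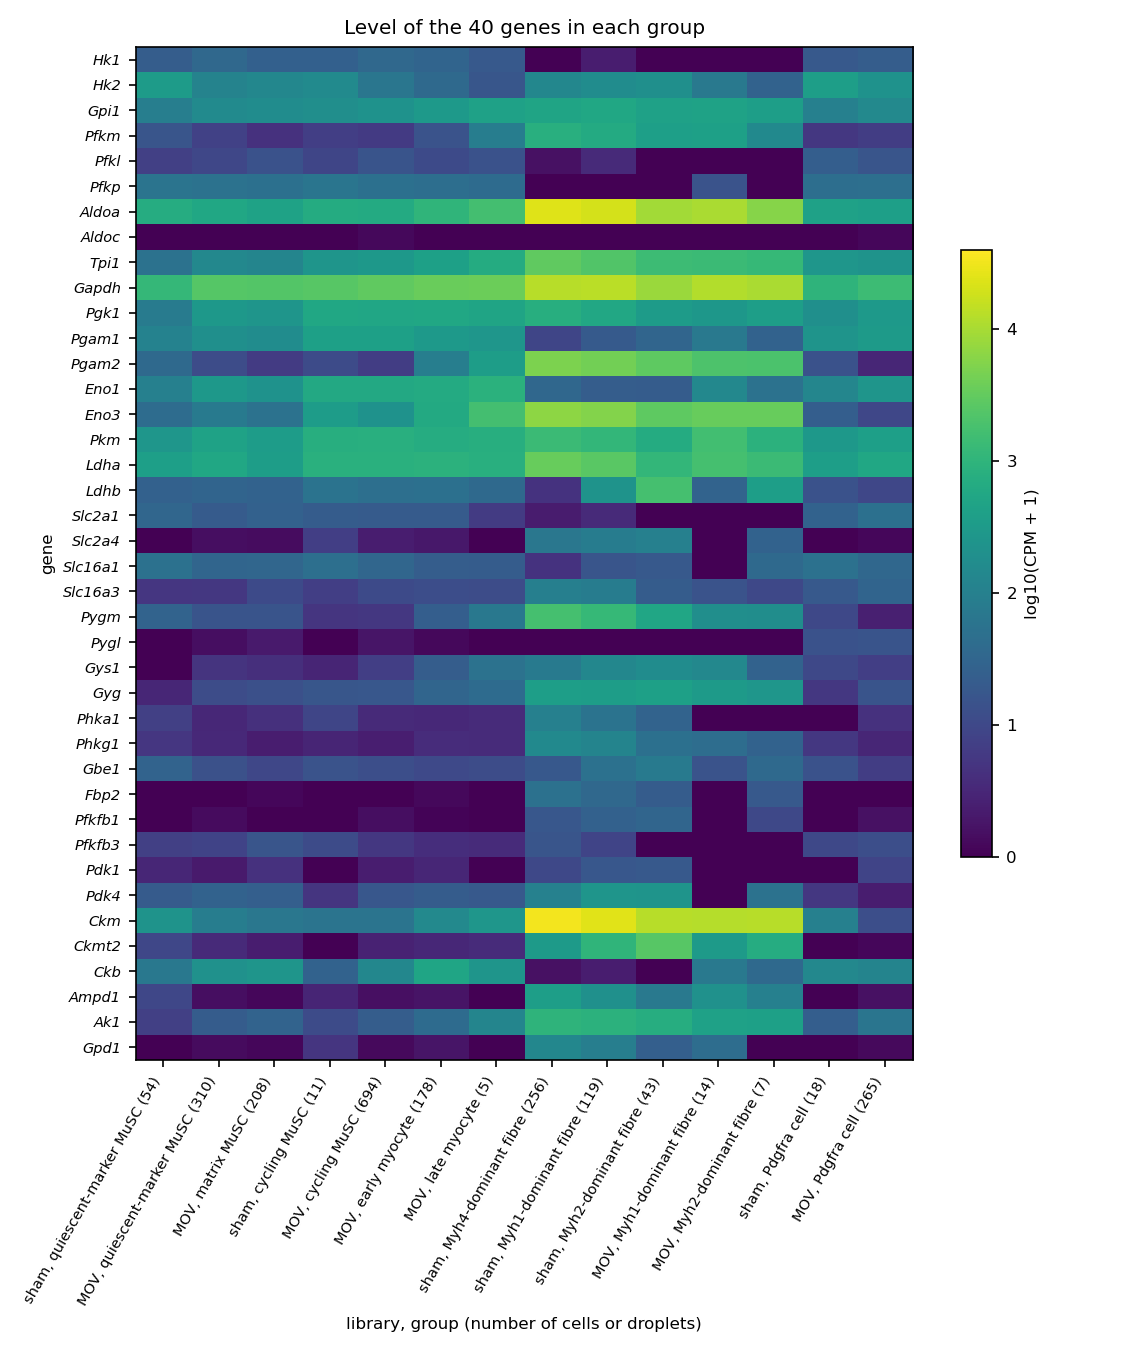
Level of each of the 40 genes (rows) in each group (columns, with the number of cells or droplets), as log10(CPM + 1) on the color scale. Ckm, Aldoa, Gapdh, Eno3 and Pgam2 are brightest in the fibre columns of both libraries. Ckb, Pgam1, Eno1, Hk1 and Pfkp are darker in the sham fibre columns than in the sham MuSC columns.

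Fibre droplets were the richest source of these transcripts. Of the 40 genes, 28 had their highest CPM in a fibre droplet group among the groups of at least 10 cells, 6 in a MuSC group, 4 in Pdgfra cells and 2, Ckb and Eno1, in early myocytes of MOV. The same count was not made over all genes, so it has no background. Some placements rest on few UMIs, namely Pdk1 on 7, Pfkfb1 on 12, Aldoc on 7 and Pfkl on 5. The 40 genes together took 9.50% of the UMIs of Myh4-dominant, 8.04% of Myh1-dominant and 4.76% of Myh2-dominant droplets in sham, against 0.400% in quiescent-marker MuSCs. Against quiescent-marker MuSCs of sham, 27 of the 35 genes with enough UMIs were higher and 6 were lower, with a median log2 ratio of 3.53, where over all 6820 genes 29.3% were higher and 41% lower with a median of -0.37. In MOV, with 23 droplets, 20 of 32 were higher and 6 lower (12.2% and 32% of 9728 genes), with a median of 1.50 against -0.21. Another scaling of the libraries (edgeR TMM factors) moved the median of all genes to 0.69 in sham and 0.00 in MOV, and the counts of higher and lower genes to 29 and 4, and to 20 and 5.

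Creatine kinase, glycogenin, adenylate kinase and the muscle forms of the lower glycolytic steps stood far apart. In sham, Ckm was at 27689 CPM (27493 to 27886) in fibre droplets and 229.8 CPM (188 to 278) in quiescent-marker MuSCs, a log2 ratio of 6.91 (6.64 to 7.20). The muscle enolase Eno3 was at 5747 CPM (5657 to 5837) against 41.2 CPM (24.8 to 64.3), and Pgam2 at 4391 CPM (4313 to 4470.0) against 36.9 CPM (21.5 to 59.0). Glycogenin, Gyg, had the largest ratio of all at 7.44 (4.96 to 12.75), resting on 1 UMI in the MuSCs, and Ak1 followed at 7.15 (5.60 to 9.43) on 3 UMIs. Among the genes that MuSCs share with other cells, Aldoa (aldolase) differed by 4.88 (4.72 to 5.05), Tpi1 (triosephosphate isomerase) by 5.55 (4.99 to 6.18), Gapdh by 3.40 (3.27 to 3.52) and Pkm (pyruvate kinase) by 2.25 (1.98 to 2.52). The lactate dehydrogenase subunit Ldha was 7.39-fold and the glycogen phosphorylase Pygm 51.4-fold higher in fibre droplets. Insulin-responsive glucose transporter Slc2a4 had 0 UMIs in the sham MuSCs and 75.1 CPM (65.2 to 86.1) in fibre droplets, which is at least 11.5-fold higher when 3 counts stand for the 0.

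Fbp2, the muscle fructose bisphosphatase, and Pfkfb1 also had 0 UMIs in the sham MuSCs and were at least 6.41- and 3.35-fold higher in fibre droplets, and Gpi1 had a ratio of 2.42 (1.98 to 2.89). The genes with too few UMIs in sham were Hk1, Pfkl, Aldoc, Slc2a1 and Pygl.

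The 6 lower genes of sham were the brain creatine kinase Ckb, the phosphofructokinase Pfkp, Pgam1, Eno1, the lactate transporter Slc16a1 and Hk2. Ckb was at 67.2 CPM (45.7 to 95.4) in quiescent-marker MuSCs and 1.09 CPM (0.224 to 3.18) in fibre droplets. Pfkp had 27 UMIs in the MuSCs and 0 in 424 fibre droplets, at least 53.8-fold lower. Hexokinase Hk2, which traps glucose in the cell, had a ratio of -1.17 (-1.43 to -0.89), while Hk1 had 1 UMI in all sham fibre droplets and 10 in the MuSCs. In MOV the lower genes were again Ckb, Pfkp, Pgam1, Eno1 and Hk2, with Hk1 in place of Slc16a1. The direction of Gbe1 in MOV, at 1.01 (-0.65 to 2.30) on 5 fibre UMIs, was the opposite when CPM were averaged per cell.

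In several isoenzyme sets the fibre droplets held nearly 1 form alone, while lactate dehydrogenase (9.82% Ldhb) and Pfkfb1 with Pfkfb3 (33.3% Pfkfb3) were mixed. In sham fibre droplets Eno3 made up 99.5% (99.4 to 99.6) of enolase UMIs, Pgam2 99.7% (99.6 to 99.8) of mutase UMIs and Pfkm 99.8% (99.5 to 99.97) of phosphofructokinase UMIs. Hk2 made up 99.8% (98.7 to 99.99) of hexokinase and Slc2a4 98.1% (95.2 to 99.5) of glucose transporter UMIs (Slc2a1 and Slc2a4). Ckb was 3 of the summed Ckm and Ckb UMIs, or 0.00393%, and Pygl was 0 of 3993 phosphorylase UMIs, which allows a share of up to 0.0751%. The lactate exporter Slc16a3 took 90.0% (85.6 to 93.5) of the 2 lactate transporters and Pdk4, a kinase that shuts pyruvate dehydrogenase, 92.9% (90.3 to 95.1) of Pdk1 and Pdk4. Neither library showed Aldoc in fibre droplets or in quiescent-marker MuSCs; over all groups it reached 7 UMIs in cycling MuSCs and 2 in Pdgfra cells of MOV.

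Fibre droplets of sham differed among themselves by dominant myosin. Against 43 Myh2-dominant droplets, the 256 Myh4-dominant droplets had 14 of 32 genes higher and 7 lower, where 12.7% and 14.5% of 4627 genes were higher and lower. The median of the 32 was 0.85 against -0.10 for all genes. When scaled to UMIs without mitochondrially encoded and sarcomere genes, 16 were higher and 4 lower, and the median of all genes moved to 0.13. These droplets differ in depth, with median UMIs of 3756 for Myh4, 4295 for Myh1 and 6071 for Myh2.

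Lactate dehydrogenase showed the widest gap. Ldhb, the heart subunit, was at 3.78 CPM (1.39 to 8.23) in Myh4-dominant, 231 CPM (198 to 268) in Myh1-dominant and 1765 CPM (1635 to 1903) in Myh2-dominant droplets, and none of these intervals overlap. Ldha ran the other way, at 3461 CPM (3370.2 to 3554), 2617 CPM (2504 to 2734) and 1131 CPM (1027 to 1242). The Ldhb share of the 2 subunits was therefore 0.109% (0.0401 to 0.237) with Myh4, 8.12% (7.01 to 9.34) with Myh1 and 61.0% (58.0 to 63.8) with Myh2. Mitochondrial creatine kinase Ckmt2 followed the Ldhb order, at 319, 1009 and 2572 CPM.

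Other genes higher in Myh2-dominant droplets were Gbe1 (-2.14, -2.94 to -1.35 for Myh4 over Myh2), Gys1 (-1.20, -1.65 to -0.75), Pdk4 (-1.19, -1.57 to -0.81), Pdk1 (-1.04, -2.45 to 0.51) and Pgam1 (-1.93, -3.18 to -0.67). Gys1 came under 2-fold with TMM factors (-0.93) and without mitochondrially encoded and sarcomere genes (-0.98). Genes of glycogen breakdown were higher with Myh4. Phosphorylase Pygm was at 1785 CPM (1719.6 to 1852), 1217 CPM (1140.2 to 1297) and 520.0 CPM (450.4 to 597) from Myh4 to Myh1 to Myh2, and the phosphorylase kinase subunits Phka1 and Phkg1, which switch it on, differed by 1.82 (0.94 to 2.85) and 1.64 (0.96 to 2.40). Gpd1, the cytosolic glycerol-3-phosphate dehydrogenase, had the largest positive ratio at 2.54 (1.59 to 3.69), next to Ampd1 at 2.36 (1.82 to 2.96) and Slc16a3 at 2.20 (1.19 to 3.44). Ckm and Aldoa were 2.54- and 2.51-fold higher with Myh4, at 32952 against 12988 CPM and 23297 against 9290.1 CPM.

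**Figure D2:**
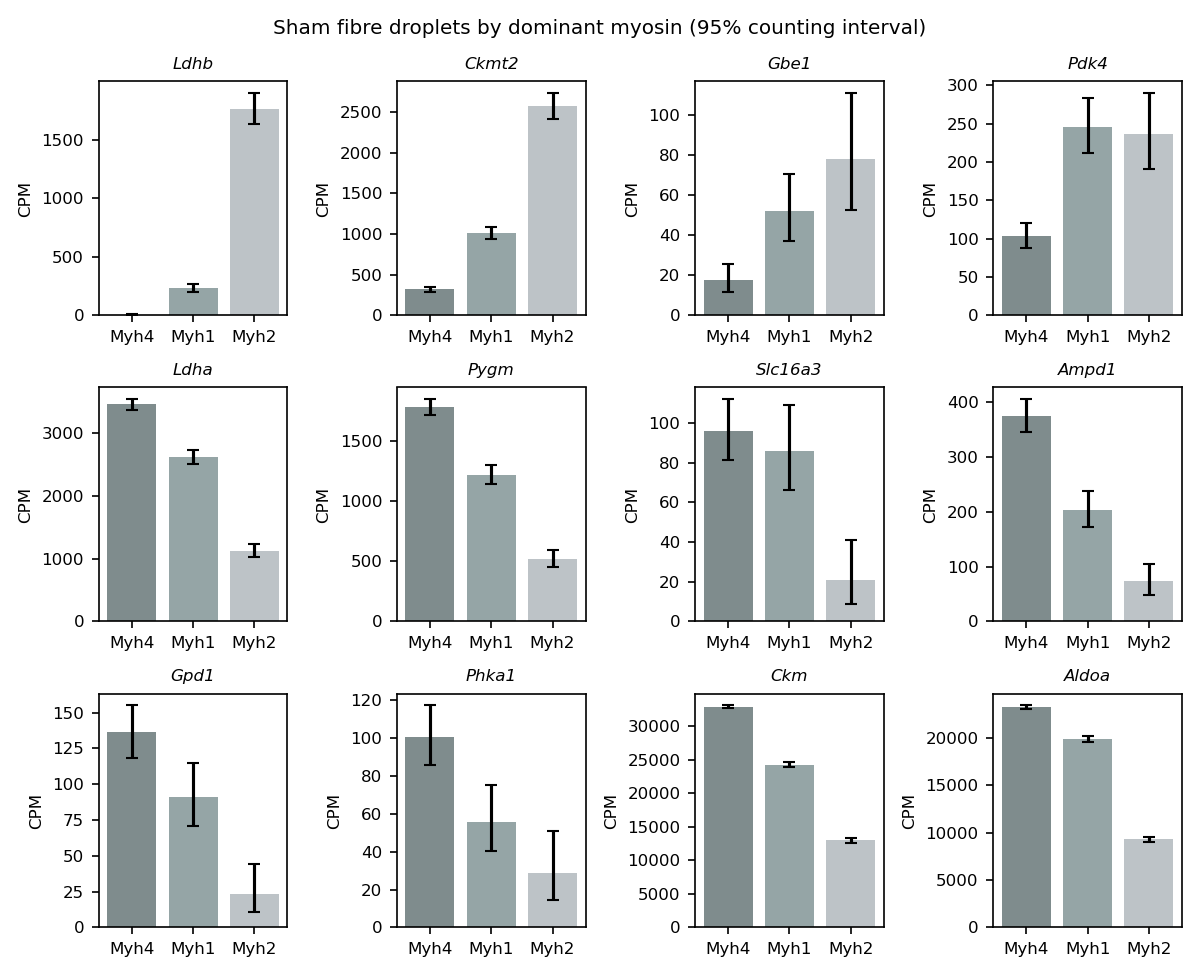
CPM of 12 of the genes in sham fibre droplets by dominant myosin (256, 119 and 43 droplets for Myh4, Myh1 and Myh2), with bars starting at 0 and 95% counting intervals. Ldhb, Ckmt2 and Gbe1 climb from Myh4 to Myh2, and Ldha, Pygm, Ampd1, Gpd1, Phka1, Ckm and Aldoa descend.

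The Myh1-dominant droplets lay between the other types for each of the 21 genes past 2-fold except Pdk4, which was highest there at 245 CPM. Against them, Myh4-dominant droplets had 0 of 32 genes higher and 5 lower (4.87% and 6.55% of 4993 genes), the 5 being Ldhb at -5.93 (-7.40 to -4.78), Ckmt2 at -1.66 (-1.83 to -1.50), Gbe1 at -1.56 (-2.31 to -0.82), Pgam1 at -1.25 (-2.44 to -0.08) and Pdk4 at -1.25 (-1.56 to -0.94). Scaled without mitochondrially encoded and sarcomere genes, 3 were higher and 5 lower. The remaining glycolytic genes stayed under 2-fold, with Ldha at 0.40 (0.33 to 0.48), Pygm at 0.55 (0.45 to 0.66) and Gapdh at -0.08 (-0.12 to -0.05). Of the 59 other pathway genes, 29 had enough UMIs in Myh4- against Myh2-dominant droplets, and 10 were higher and 7 lower with a median of -0.37, where 12.7% and 14.5% of all genes were higher and lower. The lower ones included the malate-aspartate shuttle enzymes Got1 (-2.66) and Mdh1 (-2.49) and both pyruvate carrier subunits, Mpc1 (-1.16) and Mpc2 (-1.06), and the higher ones included Gamt, a creatine synthesis enzyme (3.80), mitochondrial Gpd2 (2.28) and Pgm1 (1.93).

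RNA released from broken fibres can reach other droplets, so the levels outside fibres were read against genes of fibres. Pvalb, Mybpc2 and Myoz1 together were at 88.9 CPM in sham quiescent-marker MuSCs, 54.7 in sham Pdgfra cells, and in MOV at 13.3 in quiescent-marker MuSCs, 7.42 in cycling MuSCs, 9.71 in myocytes and 1.29 in Pdgfra cells. These 3 were chosen after their values had been seen from a list of 5, since Actn3 and Casq1, at 101 CPM in MOV quiescent-marker MuSCs and 34.6 CPM in MOV myocytes, were also high outside fibres. With all 5 the result for early myocytes turned: Ckm and Pgam2 had 56.8 and 35.7 UMIs per 100 UMIs of the 5 genes there, under the 519 and 77.3 of MOV fibre droplets. Eno3, at 130 in MOV fibre droplets, was then at 61.9 in quiescent-marker MuSCs, under the fibre proportion, and at 278 in cycling MuSCs and 234 in early myocytes, above it. Others came under it by all 5 as well, among them Ak1 of early myocytes (15.0 against 16.4) and Pygm of cycling MuSCs (5.69 against 7.71). Ckm and Pgam2 of MOV Pdgfra cells did so too, at 290 and 53.7. Values given at the fibre proportion below use the 3 genes. If each member kept the ratio to these 3 genes that it has in the fibre droplets of the same library, Ckm would stand at 294 CPM in sham quiescent-marker MuSCs, where 229.8 was measured. In MOV, Ckm was at 87.8 CPM measured against 104 at the fibre proportion in quiescent-marker MuSCs, 57.0 against 57.6 in cycling MuSCs and 11.8 against 10.0 in Pdgfra cells. The Ckm level of MuSCs was thus at or under the pooled fibre proportion in quiescent-marker and cycling MuSCs of MOV. That proportion differs by fibre type and rests on 23 droplets in MOV. Per 100 UMIs of the 5 genes, Ckm had 205, 367 and 962 in Myh4-, Myh1- and Myh2-dominant droplets of sham. In MOV the values were 342 (1 droplet), 367 and 758. Which fibres the free RNA came from was not tested. Pgam2, Ckmt2 and Ampd1 were also at or under it in quiescent-marker and cycling MuSCs of MOV, and so were Eno3, Pgam2, Ckmt2, Ak1, Gyg and Gys1 in quiescent-marker MuSCs of sham.

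**Figure D3:**
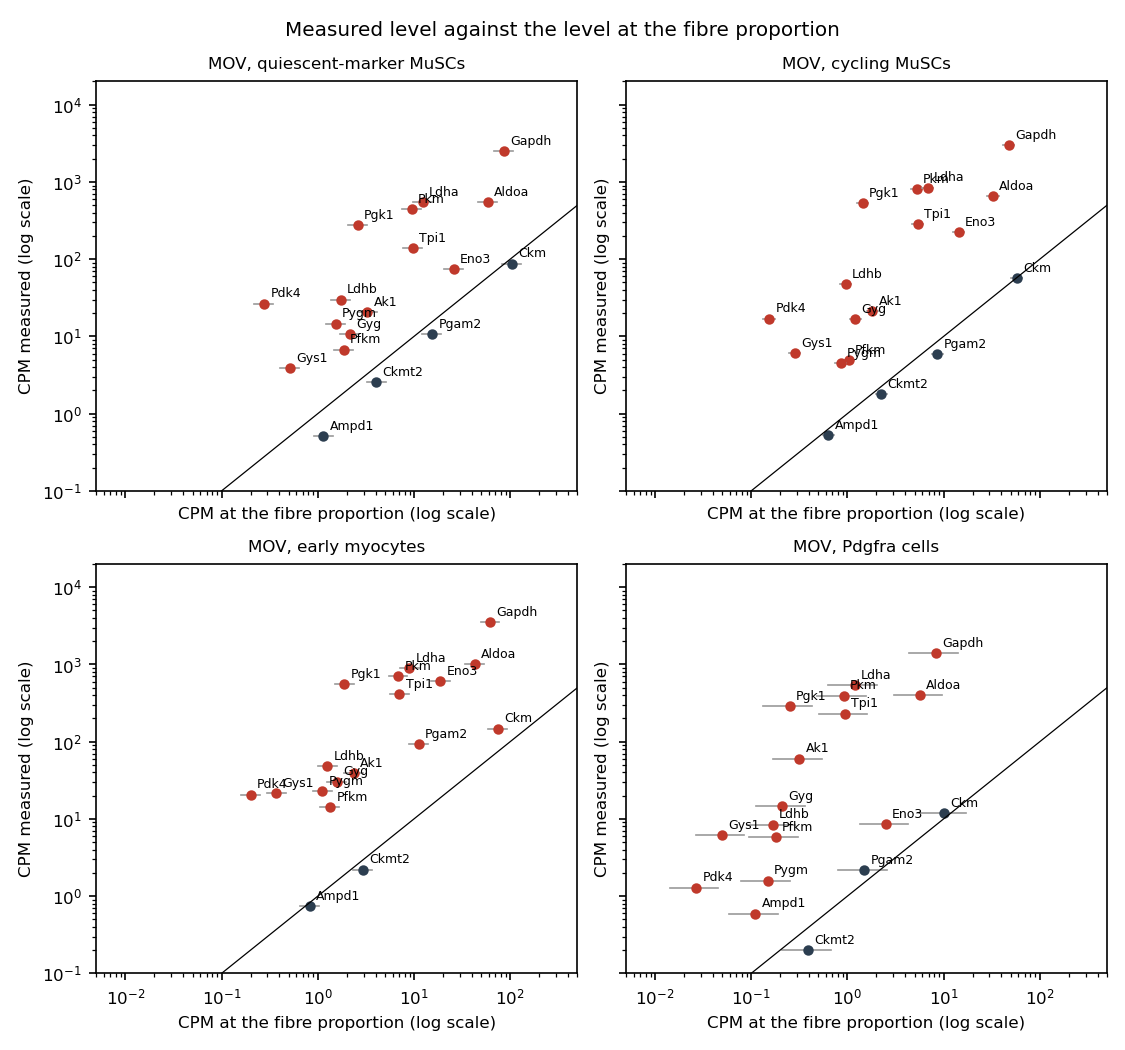
Measured CPM of 18 genes (vertical, log scale) against the CPM they would have at their ratio to Pvalb, Mybpc2 and Myoz1 in MOV fibre droplets (horizontal, log scale), with 95% counting intervals of the 3 genes, in 4 groups of MOV cells. With all 5 genes more points come under the line: Ckm, Pgam2 and Ak1 of early myocytes, Eno3 of quiescent-marker MuSCs, Pygm of cycling MuSCs, and Ckm and Pgam2 of Pdgfra cells. Not all of the 18 genes were set against the 5. The line marks equality and red points lie above the interval. Ckm and Pgam2 sit on or under the line in quiescent-marker and cycling MuSCs and above it in early myocytes, and Ckmt2 stays near or under it in all 4 groups.

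Isoenzyme use in the MOV library differed step by step from MuSCs to myocytes and fibre droplets. Against quiescent-marker MuSCs, cycling MuSCs had 6 of 35 genes higher and 1 lower, where 10.7% and 6.98% of 12629 genes were higher and lower. The higher genes were Eno3 (1.60, 1.46 to 1.74), Slc2a4 (1.42, -0.23 to 3.75, on 3 UMIs in quiescent-marker cells), Slc16a3 (1.13, 0.56 to 1.75), Pgam1 (1.10, 1.01 to 1.18), Tpi1 (1.05, 0.94 to 1.15) and Eno1 (1.04, 0.96 to 1.11), and the lower one was Pygm (-1.69, -2.09 to -1.29). Eno3 reached 223 CPM (217 to 228), which is 15.4-fold its level at the fibre proportion by the 3 genes; by all 5 it had 278 UMIs per 100 against 130 in fibre droplets. Doubling the marker cutoffs raised the count to 11 higher and 1 lower.

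The 11 cycling MuSCs of sham gave similar levels for several of these genes. Their median depth was 49892 UMIs, and only 5 are left when both cells of each shared barcode are dropped. The levels in those 5 alone were not taken. Pgk1 (phosphoglycerate kinase) was at 539 CPM (476 to 608) in sham and 536 CPM (528 to 544) in MOV, Eno1 at 604 CPM (537 to 677) and 585 CPM (576 to 593), and Pgam1 at 406 CPM (352 to 466) and 411 CPM (404 to 418). The intervals of the libraries overlap for these 3 genes. Eno3 was at 341 CPM (291 to 396) in sham cycling MuSCs, above the MOV interval, and Gapdh at 2566 CPM (2427 to 2712), under the MOV level of 3022 CPM (3002 to 3041).

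Myocytes of MOV, 178 early and 5 late, carried more of the muscle forms. Against cycling MuSCs they had 7 of 36 genes higher and 1 lower (7.83% and 11.6% of 12853 genes). Pgam2 had the largest ratio at 4.15 (3.92 to 4.39), followed by Pygm at 2.47 (2.15 to 2.79), Gys1 at 1.90 (1.61 to 2.20), Ckb at 1.89 (1.83 to 1.95), Pfkm at 1.82 (1.48 to 2.16), Eno3 at 1.56 (1.51 to 1.61) and Ckm at 1.42 (1.32 to 1.53), and the lower gene was Pygl at -1.82 (-4.94 to 0.19) on 2 myocyte UMIs. Both the phosphorylase and the synthase of muscle glycogen were among the higher genes. Pgam2 was at 92.9 CPM in early myocytes, where the fibre proportion would give 11.2, and Pygm at 23.1 where it would give 1.12. By all 5 fibre genes Pgam2 was under the fibre proportion, and Pygm was near it, at 8.88 UMIs per 100 against 7.71. In the 5 late myocytes Pgam2 was at 367 CPM (309 to 433), Eno3 at 1687 CPM (1559 to 1823), Pfkm at 89.8 CPM (62.2 to 125) and Pygm at 68.7 CPM (44.8 to 101). Ckm stayed low, at 259 CPM (210.1 to 315) in late myocytes against 13377 CPM (12869.7 to 13898) in MOV fibre droplets, and Ckmt2 had 1 UMI in late myocytes.

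The share of Eno3 in enolase UMIs of MOV was 20.5% (18.8 to 22.3) in quiescent-marker, 19.3% (17.1 to 21.6) in matrix and 27.6% (27.0 to 28.1) in cycling MuSCs, 48.3% (47.3 to 49.3) in early and 66.1% (63.0 to 69.1) in late myocytes and 97.5% (96.0 to 98.5) in fibre droplets. Pgam2 made up 5.32% (4.12 to 6.74), 3.03% (1.95 to 4.48) and 1.42% (1.22 to 1.64) of mutase UMIs in the same MuSC groups, 24.2% (22.7 to 25.8) in early and 58.9% (52.3 to 65.2) in late myocytes and 391 of 399 UMIs in fibre droplets. Pfkm was 7.19% (6.12 to 8.38) of phosphofructokinase in cycling MuSCs, 20.2% (17.0 to 23.7) in early and 63.0% (48.7 to 75.7) in late myocytes and 97.9% (88.9 to 99.9) in fibre droplets. From cycling MuSCs to fibre droplets each of these 3 shares was higher at every step, with intervals that do not overlap, but the late myocytes are only 5 cells. In Pdgfra cells of MOV the Eno3 share was 3.34% and the Pgam2 share 0.678%. Pgam2 of these MuSC groups was under its fibre proportion, and the part of fibre RNA in its shares was not tested.

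**Figure D4:**
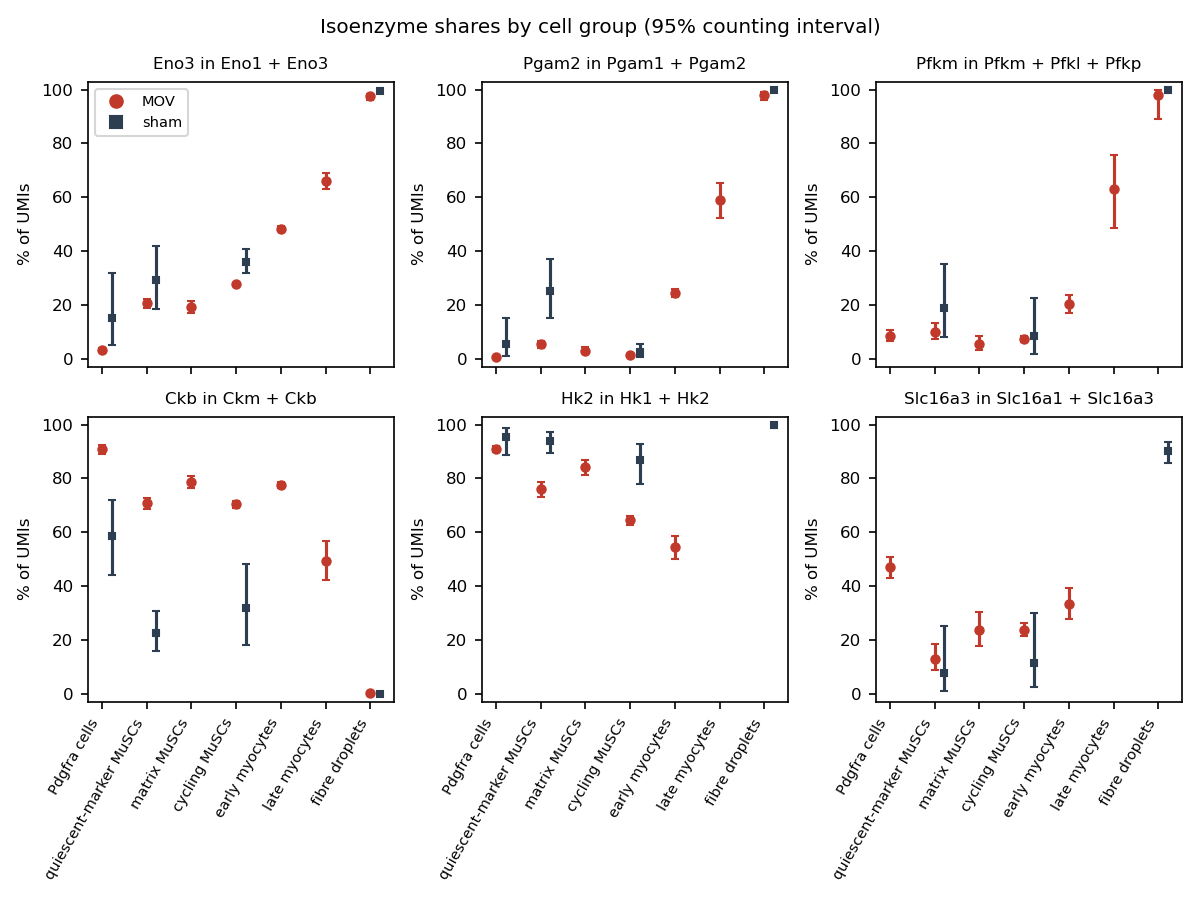
Share of 1 isoenzyme in the UMIs of its set (vertical, %) by cell group, for MOV (circles) and, sham (squares) where the set had enough UMIs (20), with 95% exact binomial intervals; sham myocytes are left out as 1 cell. Eno3, Pgam2 and Pfkm climb from cycling MuSCs to fibre droplets, Ckb is near 0 only in fibre droplets, and Hk2 declines from quiescent-marker MuSCs to early myocytes in MOV.

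Other sets followed different orders. Ckb made up 70.7% (68.5 to 72.8) of Ckm and Ckb UMIs in quiescent-marker MuSCs of MOV, 70.3% (69.1 to 71.5) in cycling MuSCs and 77.5% (76.4 to 78.7) in early myocytes, and its level was highest in myocytes at 499.9 CPM (485 to 515). Ckm of both MuSC groups was at or under its fibre proportion, and by all 5 fibre genes so was Ckm of early myocytes. The part of fibre RNA in these shares was not tested. Pfkp stayed the leading phosphofructokinase through early myocytes, at 65.6% (61.6 to 69.5). Hk2 went down along the same groups, from 75.9% (73.0 to 78.7) of hexokinase UMIs in quiescent-marker MuSCs to 64.4% (62.7 to 66.2) in cycling MuSCs and 54.5% (50.2 to 58.8) in early myocytes. Slc16a3 took 13.0% (8.73 to 18.3), 23.7% (21.4 to 26.2) and 33.5% (27.8 to 39.4) of the lactate transporters, and Slc2a4 stayed at or under 6.36% of Slc2a1 and Slc2a4 in these 3 groups. Ldhb held 5.11%, 5.29% and 5.13% of lactate dehydrogenase, with overlapping intervals. Pfkfb3, which makes the activator of phosphofructokinase, kept 90.1% or more of Pfkfb1 and Pfkfb3.

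Matrix MuSCs differed little from quiescent-marker MuSCs of MOV. Of 33 genes, 3 were higher and 1 lower (3.48% and 2.14% of 10749 genes), namely Pdk1 (1.59, 0.23 to 3.11, on 7 and 16 UMIs), Slc16a3 (1.13, 0.41 to 1.88) and Pfkfb3 (1.03, 0.47 to 1.61), and Pgam2 (-1.02, -1.76 to -0.32), which in both groups was under its fibre proportion. Without the 5% of cells with the most UMIs in each group 2 were higher and 0 lower. In MOV, 181 cells carried both marker sets and were placed with the stronger one.

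Overload was compared within the quiescent-marker MuSCs, the only MuSC group named by markers of its own with more than 20 cells in both libraries. These cells differed in quality and depth, with a median mitochondrial share of 5.70% in sham and 3.14% in MOV. Their median UMIs were 8033 and 16000.5. Over the quiescent-marker and matrix groups, 3 sham and 181 MOV cells carried both marker sets. How many of these fell in the quiescent-marker group was not counted. A mitochondrial limit of 5% would leave 14 of the 54 sham cells and 300 of the 310 MOV cells. Of 29 genes with enough UMIs, 7 were higher in MOV and 5 lower, where 21.9% and 9.28% of 9740 genes were higher and lower, and the median was 0.40 against 0.22 for all genes. With DESeq2 factors, which bring the median of all genes to 0.00, 6 were higher and 7 lower. The remaining 11 genes did not reach 20 UMIs.

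The 7 higher genes, a share near that over all genes, were Pgk1, Eno1, Tpi1, Gapdh, Ckb, Ak1 and Gyg. With DESeq2 factors Gapdh came under 2-fold (0.84). Pgk1 was at 82.4 CPM (58.3 to 113) in sham and 279 CPM (266 to 293) in MOV, a ratio of 1.76 (1.30 to 2.26). Eno1 was at 99.7 CPM (73.0 to 133) and 285 CPM (272 to 299), a ratio of 1.52 (1.09 to 1.97). Tpi1 stood at 54.2 CPM (35.1 to 80.0) and 138 CPM (128 to 148), and Gapdh at 1169 CPM (1072 to 1272) and 2487 CPM (2447 to 2527), with ratios of 1.35 and 1.09. The intervals of the libraries do not overlap for these 4 genes, but they cover counting error only. The share of all genes with intervals apart was not counted. Ckb was also higher, at 67.2 CPM (45.7 to 95.4) and 212 CPM (200.4 to 224), and Ak1 at 1.65 (0.07 to 3.95) rested on 3 sham UMIs. Gyg, at 2.29 (-0.24 to 7.62), rested on 1 sham UMI and changed direction when the marker cutoffs were doubled. Under 2-fold were Ldha at 0.50 (0.28 to 0.72), Pkm at 0.78 (0.52 to 1.06), Gpi1 (glucose-6-phosphate isomerase) at 0.77 (0.33 to 1.25) and Pgam1 at 0.80 (0.39 to 1.23), all with intervals above 0, and Aldoa at -0.32 (-0.49 to -0.15), with its interval under 0. At the fibre proportion Aldoa would be at 216 CPM in sham and 58.8 in MOV, where 692 and 553 were measured. The part of fibre RNA in the Aldoa difference was not tested.

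Of the 5 lower genes, Pgam2, Ckm, Pfkm and Gbe1 had their highest level in a fibre droplet group. Gbe1 differed little in sham, at 35.6 CPM in all fibre droplets and 28.2 CPM in quiescent-marker MuSCs. Pgam2 (-1.77, -2.56 to -0.91), Ckm (-1.39, -1.69 to -1.07) and Pfkm (-1.17, -2.34 to 0.23) were lower in MOV, and the 3 fibre genes Pvalb, Mybpc2 and Myoz1 moved with them, from 88.9 to 13.3 CPM. The part of fibre RNA in this difference was not tested; Pgam2 and Ckm were under their fibre proportion in both libraries, and Pfkm, by the 3 genes, was at 2.08 and 3.64 times it. Gbe1 was lower at -1.15 (-2.02 to -0.18) and was not set against the fibre genes. The share of Ckb in creatine kinase UMIs was 22.6% (15.9 to 30.6) in sham and 70.7% (68.5 to 72.8) in MOV.

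Hk2 was the most abundant of the lower genes, and its level in sham fibre droplets, 152 CPM (137 to 167), was under that of the sham MuSCs. It was at 340.4 CPM (289 to 398) in sham and 112 CPM (104 to 121) in MOV quiescent-marker MuSCs, a ratio of -1.61 (-1.86 to -1.34). Of the groups with at least 7 cells in both libraries, the same order held for sham and MOV, at 159 and 62.7 CPM in cycling MuSCs, 378 and 223 in Pdgfra cells, 170.1 and 70.8 in Myh1-dominant droplets, 198 and 26.9 in Myh2-dominant droplets and 269 and 114 in MuSCs without group markers. Intervals overlap in Myh1-dominant droplets, and 4 of these groups have 18 or fewer cells on at least 1 side. Of the groups with 1 cell in a library, Myh4-dominant droplets had 133 and 127 CPM, and in matrix MuSCs and early myocytes the single sham cell had 0 and 1 UMI of Hk2, under the MOV level. The Hk2 share of hexokinase was 94.0% (89.3 to 97.1) in sham and 75.9% (73.0 to 78.7) in MOV quiescent-marker MuSCs. After each cell had been thinned to 2000 UMIs, 40.7% of sham and 19.0% of MOV quiescent-marker MuSCs had an Hk2 UMI (61.1% and 70.0% before thinning), against 22.2% of sham fibre droplets.

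**Figure D5:**
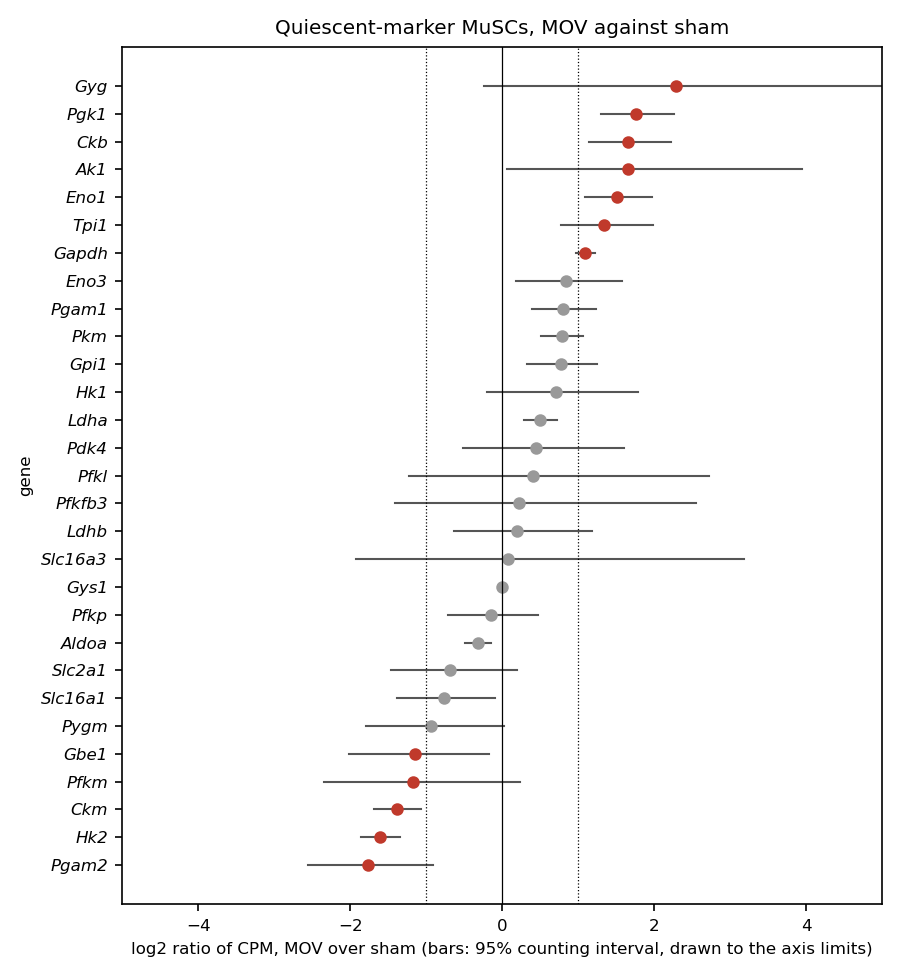
log2 ratio of CPM, MOV over sham, of the 29 genes with enough UMIs in quiescent-marker MuSCs (310 against 54 cells), with 95% counting intervals; red points reach 2-fold and dotted lines mark it. Pgam2, Hk2, Ckm, Pfkm and Gbe1 lie at the low end and Gyg, Pgk1, Ckb, Ak1, Eno1, Tpi1 and Gapdh at the high end; Gys1, with 0 sham UMIs, is drawn at 0 with no interval.

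Among the 59 other pathway genes, 13 of 42 were higher in MOV quiescent-marker MuSCs and 2 lower, where 21.9% and 9.28% of all genes were higher and lower. Txnip, an inhibitor of glucose uptake, had the largest ratio at 5.39. Further higher genes were the pentose phosphate enzymes Pgd (1.55), Tkt (1.53) and Rpe (1.79), the glycogen-binding protein gene Stbd1 (2.47), Gamt (2.53) and the hypoxia factor Hif1a (1.16). The lower genes were Ugp2 (-1.62), which makes the glucose donor of glycogen, and Pgm2 (-1.11).

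Overloaded fibres could be compared only on few droplets. Myh4-dominant droplets numbered 1 in MOV, with 485 UMIs of the 40 genes; set against sham, 1 of 29 genes was higher and 7 lower (18.8% and 2.27% of 4090 genes), and nothing is read from it. The 14 Myh1-dominant droplets of MOV had 2 of 30 genes higher and 12 lower than the 119 of sham (17.1% and 16.9% of 3030 genes), with a median of -0.86 against 0.00. With TMM factors, which move the median of all genes to -0.59, 2 were higher and 21 lower, and with doubled marker cutoffs 0 and 9. Lower were Ldhb (-3.03, -6.09 to -1.16), Pygm (-2.73, -3.64 to -1.94), Slc16a3 (-2.60, -7.92 to -0.07), Ckmt2 (-1.63, -2.30 to -1.04), Ak1 (-1.09, -1.67 to -0.57) and Pgk1 (-1.09, -1.84 to -0.43), Pdk4, which had 0 UMIs in MOV and was at least 5.78-fold lower, and Gbe1, Phkg1, Hk2, Gpd1 and Slc2a4. Higher were Eno1 at 2.68 (1.39 to 3.89) on 10 MOV UMIs and Pgam1 at 1.86 (0.05 to 3.39) on 5. Markers of other myogenic cells moved with them: Myh3 was at 255 CPM and Myog at 56.6 in MOV against 0 and 5.19 in sham, and their part in the difference was not tested.

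The 7 Myh2-dominant droplets of MOV had 0 of 23 genes higher and 9 lower (9.77% and 24.7% of 2180 genes). With doubled marker cutoffs 0 of the 7 droplets were left in this group, so the comparison could not be made. Hk2 had the lowest ratio at -2.88 (-5.19 to -1.28), then Gys1 (-2.70, -5.01 to -1.09), Ldhb (-2.23, -2.71 to -1.78), Pdk4 (-2.14, -3.62 to -0.96), Slc2a4 (-1.91, -4.25 to -0.26), Ckmt2 (-1.86, -2.21 to -1.53), Pygm (-1.54, -2.28 to -0.87), Pfkm (-1.38, -2.20 to -0.66) and Gbe1 (-1.12, -3.09 to 0.38). Ldhb, Ckmt2, Pygm, Pdk4, Hk2, Slc2a4 and Gbe1 were lower in both droplet types. The share of all genes lower in both types was not counted. Intervals of the Hk2 levels overlap with Myh1, and the interval of the Gbe1 ratio with Myh2 includes 0. Pygm was at 184 CPM with Myh1 and 179 with Myh2 in MOV against 1217 and 520.0 in sham. Ckm was at 12373 and 12976 CPM in MOV against 24299 and 12988 in sham, a ratio of -0.97 with Myh1 and nearly equal levels with Myh2. The Ldhb share of Myh2-dominant droplets was 21.3% (15.8 to 27.7) in MOV and 61.0% (58.0 to 63.8) in sham.

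Pdgfra cells of MOV shared the general glycolytic genes with quiescent-marker MuSCs but not several isoenzymes. Of 33 genes, 5 were higher and 7 lower in Pdgfra cells (20.9% and 12.1% of 12008 genes), with a median of -0.10 against 0.03. Pygl, the liver phosphorylase, had the largest ratio at 4.87 (3.29 to 7.16) and made up 90.3% (84.7 to 94.4) of phosphorylase UMIs, against 3.33% (0.693 to 9.43) in the MuSCs. Also higher were Slc16a3 (2.70, 2.13 to 3.32), Pdk1 (2.69, 1.58 to 4.06), Ak1 (1.57, 1.28 to 1.86) and the glucose transporter Slc2a1 (1.26, 0.97 to 1.56). The lowest ratio was that of Pdk4 at -4.36 (-5.30 to -3.54), with 26.5 CPM (22.5 to 31.0) in MuSCs and 1.29 CPM (0.687 to 2.21) in Pdgfra cells, so that Pdk4 made up 95.7% (91.4 to 98.3) of Pdk1 and Pdk4 UMIs in the MuSCs and 14.4% (7.92 to 23.4) in Pdgfra cells. Pygm, Eno3, Ckm, Pgam2, Ldhb and Gbe1 were lower as well, and the fibre genes Pvalb, Mybpc2 and Myoz1 were at 13.3 CPM in these MuSCs against 1.29 in the Pdgfra cells. Eno3 was at 73.6 CPM (66.8 to 80.8) in MuSCs, 2.83 times its fibre proportion by the 3 genes but under it by all 5, and at 8.63 CPM (6.92 to 10.6) in Pdgfra cells. Gapdh, Aldoa, Ldha, Pkm, Pgk1, Tpi1 and Eno1 all stayed under 2-fold between these groups.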

How the data were processed

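The authors deposited whole-number UMI counts per gene and cell for 1 sham and 1 MOV library, made with Cell Ranger 6.0.0 against the mm10 build as stated in the methods; the submitters' notes also name R 4.0.2 and Seurat 4.0.2. Whether introns were counted is not given in the sources used here. Depth was 7302661 UMIs in sham and 88498487 in MOV, with medians of 4116.5 and 16836 UMIs per cell.

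Counts were read with Python 3.11.15 (numpy 2.4.6, scipy 1.17.1, pandas 2.3.3). Cells with 10% or more mitochondrial UMIs were left out (362 sham, 794 MOV). Groups needed marker UMIs, and UMIs per 1000000 of the cell, of at least 3 and 1000 (fibre), 5 and 500 (myocyte), 3 and 300 (cycling), 2 and 100 (quiescent), 3 and 200 (matrix), 3 and 60 (Pdgfra) and 2 (MuSC). Cells with 5 UMIs and 300 per 1000000 of endothelial, immune, Schwann, tendon or mural markers were set aside. These cutoffs were set after the marker UMIs had been seen, and the 40 genes and other lists were chosen with earlier results of these data known. The design as first written kept shared barcodes; the shallower copies were dropped once their content had been seen. Doublets were not called.

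UMIs were summed per library and group; CPM have exact Poisson intervals, ratios exact conditional intervals and shares Clopper-Pearson intervals (95%). A group at 0 was given 3 counts, which yields a bound. The 2 features named Aldoa were summed. For shares of cells with a UMI, each cell was thinned to 2000 UMIs. Members of the isoenzyme sets and the largest and smallest ratios past 2-fold were named by rule, and further genes were named after their values were seen. The procedure was tested on simulated data. Alternatives were edgeR 4.0.16 and DESeq2 1.42.0 factors (R 4.3.3), totals without mitochondrially encoded and sarcomere genes, per-cell means, other UMI minimums, mitochondrial limits and marker cutoffs, and treatment of deep, shallow and shared cells. The comparisons of Myh1- with Myh4-dominant droplets and of Myh1- and Myh2-dominant droplets between libraries were added after the data had been seen.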

Additional observations from a re-analysis of the deposited data

Results flagged for a closer look

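For 4 genes the MOV-to-sham ratio ran in opposite directions in quiescent-marker MuSCs and in Myh1-dominant fibre droplets. They were picked from these same values by opposite signs, intervals off 0 in both groups and 2-fold in at least 1. The share of all genes that meet this rule was not counted. In the MuSCs the log2 ratio was 1.35 for Tpi1, 1.09 for Gapdh, 1.76 for Pgk1 and 1.65 for Ak1. In Myh1-dominant droplets (14 in MOV, 119 in sham) it was -0.72 for Tpi1, -0.20 for Gapdh, -1.09 for Pgk1 and -1.09 for Ak1, and in Myh2-dominant droplets (7 and 43) it was -0.86 for Ak1, -0.25 (-0.53 to 0.03) for Tpi1 with an interval that includes 0, 0.39 for Gapdh and 0.15 for Pgk1, the last 2 in the direction of the MuSCs. With DESeq2 factors Gapdh came under 2-fold in the MuSCs, and the Myh1-dominant droplets of MOV also held more Myh3 and Myog than those of sham. These differences between cell groups were not tested, since each condition has 1 library.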

How the results depend on the processing

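No paired analysis was possible because each condition has 1 library, and no replicate could be left out. Of 190 counts of genes past 2-fold under alternatives, 179 stayed within 1.5 times the reported count. The matrix against quiescent-marker count of 4 became 1 with a mitochondrial limit of 5% and 2 both with doubled marker cutoffs and without the 5% of cells with the most UMIs. Doubled cutoffs turned the cycling against quiescent-marker count of 7 into 12 and that of Myh1-dominant droplets, MOV against sham, from 14 into 9, where TMM factors gave 23. For Myh4-dominant against Myh1-dominant droplets, 5 became 8 without mitochondrially encoded and sarcomere genes in the total and 9 without a UMI minimum. With doubled cutoffs no Myh2-dominant droplet of MOV was left, so that comparison has no value there. The single MOV Myh4-dominant droplet gave 8, or 17 with TMM factors, 15 with DESeq2 factors and 5 with shared barcode copies kept. Of 2476 ratios of genes past 2-fold, 2360 kept direction and size past 2-fold, 114 fell under 2-fold and 2 reversed: Gyg in quiescent-marker MuSCs, MOV against sham, at -0.18 with doubled cutoffs, and Gbe1 in MOV fibre droplets against quiescent-marker MuSCs at -0.67 with per-cell means. Of 608 isoenzyme shares, 38 moved outside their interval. The causes were not tested.

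Split into higher and lower genes, Myh4 against Myh2 moved from 14 and 7 to 17 and 4 with TMM factors, Myh4 against Myh1 from 0 and 5 to 2 and 5, and Pdgfra cells against quiescent-marker MuSCs from 5 and 7 to 8 and 7 with per-cell means. Sham cycling MuSCs (11 cells) and MOV fibre droplets (23) limit what their depth can show, and 11 of the 40 genes had too few UMIs for the comparison of quiescent-marker MuSCs between libraries.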

Other observations

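Of the 59 pathway genes outside the 40, 46 had enough UMIs in Pdgfra cells against quiescent-marker MuSCs of MOV, and 14 were higher and 7 lower in Pdgfra cells, where 20.9% and 12.1% of all genes were higher and lower. Tkt, transketolase of the pentose phosphate pathway, had a log2 ratio of 3.61, the enolase Eno2 3.32 and the creatine transporter Slc6a8 2.17, while Gatm, the first enzyme of creatine synthesis, was at -4.01 and Stbd1, a glycogen-binding protein, at -3.41. In myocytes against cycling MuSCs of MOV, Gatm was higher at 2.50 and Gamt, the second enzyme, at 1.29, and the phosphorylase Pygb was lower at -1.65. These are values of single libraries and were not tested.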
